A study of Mus musculus with 15 samples.

Results

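Selenoproteins are the proteins that carry selenocysteine, and 10 of their genes are described here in BV2 cells, a mouse microglial cell line: Selenop, Gpx1, Gpx4, Msrb1, Txnrd2, Selenow, Selenok, Selenos, Selenom and Selenof. They were 10 of the 54390 genes counted, taken by gene symbol, and all 10 were among the 14237 genes with enough reads to be tested. The list was chosen from measured values of these same libraries, and which of the comparisons served for the choice is not recorded. The levels and fold changes of the 10 genes are therefore given as a description with their standard errors and without p-values. How many of them passed the threshold of the fit over all genes is counted, in the main fit and under alternatives, also as a description. P-values are printed only for genes outside the list. A further 14 mouse selenoprotein genes, 8 of them tested, were set beside them.

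Selenocysteine (Sec) is an amino acid like cysteine with selenium in place of sulfur. It is inserted at a UGA codon, which otherwise ends translation, with the help of a stem-loop of the mRNA called the SECIS element, a dedicated tRNA, a SECIS-binding protein and an elongation factor of its own. Most selenoproteins are redox enzymes that hold Sec at the active site, whereas selenoprotein P, the product of Selenop, is secreted, holds many Sec residues and delivers selenium to cells that take it up through receptors of the LDL receptor family. In macrophages, glutathione peroxidases, thioredoxin reductases and methionine sulfoxide reductase B1 act on peroxides and oxidised proteins.

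The study asked how cells with and without Trem2, a lipid-sensing receptor of myeloid cells, respond to cholesterol loading. Gene expression was measured by RNA-seq of total RNA in 15 TruSeq libraries: 4 of WT cells in media alone (WT non-foamy), 4 of WT cells kept overnight with soluble cholesterol at 20 μg/ml (WT foamy), 3 of Trem2KO cells in media alone (Trem2-/- non-foamy) and 4 of Trem2KO cells with the same cholesterol (Trem2-/- foamy). All cells were BV2, Cas9 had been introduced into the line and a single clone of it expanded, and Trem2-/- cells came from single clones isolated after transfection with a Trem2 guide RNA, so loss of Trem2 and differences between clones cannot be told apart. Cholesterol was supplied in methyl-beta-cyclodextrin and non-foamy cells received media alone, so cholesterol and its carrier cannot be told apart. Nothing stated whether the libraries of a group came from separate cultures, and the errors then measure the spread between libraries, which may be technical.

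The sequences that set selenoproteins apart are their in-frame TGA codons. Selenop (chr15:3268547-3280508, plus strand, GRCm38) has 10 of them in 380 codons, and the other 9 genes have 1 each. The last 150 coding bases of Selenop, which lie in 1 exon at chr15:3279561-3279710, hold 5 of its 10 Sec codons and show how densely they sit. The lines after it show the Sec codon of Gpx1 (codon 47, chr9:108339451-108339453) and of Gpx4 (codon 73, chr10:80054737-80054739) in the first part of the peroxidase reading frames, of 201 and 197 codons, that of Msrb1 (codon 95 of 116, chr17:24740158-24740160), and those of Selenok (codon 92 of 94) and Txnrd2 (codon 526 of 527) next to the end. Capitals mark TGA codons read as selenocysteine, and sequences run 5′ to 3′ on the coding strand.
Selenop end: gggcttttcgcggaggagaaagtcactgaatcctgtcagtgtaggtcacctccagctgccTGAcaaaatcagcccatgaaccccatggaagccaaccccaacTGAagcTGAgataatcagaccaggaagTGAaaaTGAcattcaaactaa
Selenop codon 59: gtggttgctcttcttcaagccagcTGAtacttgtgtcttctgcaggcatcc
Gpx1: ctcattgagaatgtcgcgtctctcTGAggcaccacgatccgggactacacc
Gpx4: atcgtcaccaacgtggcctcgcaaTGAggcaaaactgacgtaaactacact
Msrb1: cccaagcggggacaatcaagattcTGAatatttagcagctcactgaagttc
Selenok: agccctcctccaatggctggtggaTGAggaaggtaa
Txnrd2: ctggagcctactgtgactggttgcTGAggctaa
The first Sec codon of Selenop is codon 59 and the next is codon 259, so 9 of the 10 lie in the last part of the reading frame, up to codon 377. Among the single-Sec members, the codon sits at the N-terminal side in Selenow (codon 13 of 88), Selenom (codon 48 of 145) and Gpx1, at codon 93 of 162 in Selenof, and near the end in Selenos (codon 189 of 190).

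Libraries held 23538963 to 41683825 counts, and the tested genes took 99.97% of them. Trem2 was measured at 327 to 415 CPM (counts scaled to library size and TMM factor) in the 8 WT libraries and at 214 to 232 CPM in the 7 Trem2-/- libraries, lower without overlap, with log2 fold changes of −0.67 ± 0.08 (SE) in non-foamy and −0.73 ± 0.07 in foamy cells. Macrophage genes such as Csf1r, Cd68 and Tyrobp were high in every library, whereas the microglial genes Cx3cr1, Tmem119 and P2ry12 were at most 2.46 CPM. The 10 macrophage and microglia markers summed to 3015 to 3697 CPM in WT and 4232 to 4522 CPM in Trem2-/- libraries. This sum, mostly Cd68 and Tyrobp, moved with genotype, and its part in the genotype comparisons was not tested. Not all 10 moved that way: Spi1 and Itgam overlapped between genotypes, and Cx3cr1 and P2ry12 were lower in Trem2-/- cells. In non-foamy cells Cx3cr1 was at 1.30 to 1.96 CPM in WT and 0.199 to 0.361 CPM in Trem2-/- libraries. P2ry12 was at 1.29 to 2.46 and 0.505 to 0.662 CPM. The defining liver genes Alb and Ttr were at 0 in all 15 libraries. The third WT non-foamy library had the fewest counts and stood apart. Against the mean of its own group, its genes of at most 2464 exonic bases were 0.263 higher (log2), relative to genes of at least 6558. The other 14 libraries, each against its own group, were at −0.210 to 0.120, so differences between groups are not in these values. The third WT non-foamy library held the highest level of its group for 9 of the 10 selenoproteins. The first WT foamy library, at −0.210, held the lowest WT foamy level of 8 of them. The part of this length trend in the results was not tested. Values without the third WT non-foamy library are given beside many, but not all, of the genotype values it moved. Without it, the non-foamy genotype value went from −0.51 to −0.41 for Selenoh and from −0.54 to −0.63 for Txnrd1.

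**Figure D1:**
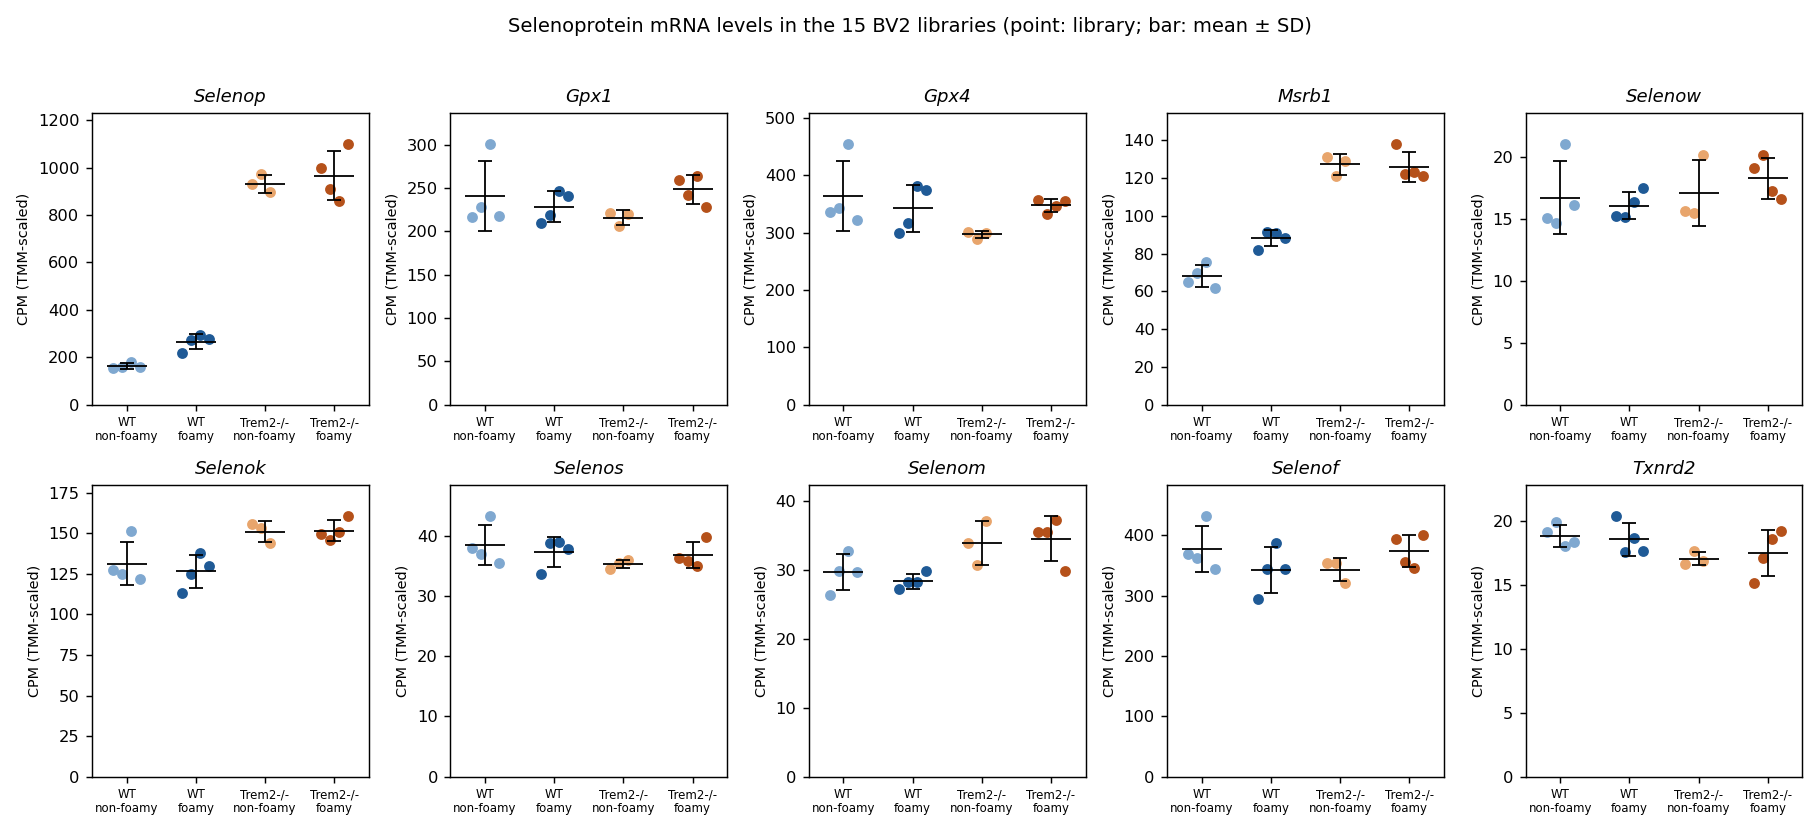
Levels of the 10 selenoprotein mRNAs in each of the 15 libraries, in TMM-scaled CPM on linear axes from 0, by group (points are libraries, bars the mean ± SD of 4, 4, 3 and 4 libraries). Selenop and Msrb1 separate the 7 Trem2-/- libraries from the 8 WT libraries, the third WT non-foamy library is the high point of Gpx1 and Gpx4, and the other members overlap between several groups.

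Selenop, the secreted selenium carrier, had by far the widest range. It was measured at 154, 160, 181 and 157 CPM in WT non-foamy cells, at 217, 274, 294 and 278 CPM in WT foamy cells, at 929, 972 and 895 CPM in Trem2-/- non-foamy cells, and at 998, 908, 861 and 1098 CPM in Trem2-/- foamy cells. In bulk libraries, more cells with a transcript and more transcript per cell cannot be told apart. All 7 Trem2-/- libraries lay above all 8 WT libraries, all WT foamy libraries lay above all WT non-foamy libraries, and the groups of Trem2-/- cells overlapped. The Trem2-/- level was 5.72 times the WT level in non-foamy cells (log2 fold change 2.52 ± 0.09, SE, n = 3 and 4) and 3.63 times in foamy cells (1.86 ± 0.09, n = 4 and 4). With cholesterol, the level in WT cells was 1.63 times that in media alone (log2 0.71 ± 0.09), and in Trem2-/- cells 1.04 times (0.05 ± 0.09). The difference between these responses was −0.65 ± 0.13 on the log2 scale, with Trem2-/- cells having the smaller one. Of the exonic bases of Selenop, 15.4% overlap Ccdc152, a gene on the opposite strand, and Ccdc152 itself was at most 0.325 CPM.

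Msrb1, the methionine sulfoxide reductase that repairs oxidised methionine, separated the same groups as Selenop, over a smaller range. It was measured at 65.1, 69.7, 75.5 and 62.0 CPM in WT non-foamy cells, at 81.9, 91.6, 90.7 and 88.5 CPM in WT foamy cells, at 131, 121 and 129 CPM in Trem2-/- non-foamy cells, and at 138, 122, 123 and 121 CPM in Trem2-/- foamy cells. Again every Trem2-/- library was above every WT library and every WT foamy library above every WT non-foamy one, while Trem2-/- foamy and non-foamy libraries overlapped. The Trem2-/- level was 1.87 times the WT level without cholesterol (log2 0.90 ± 0.07) and 1.43 times with it (0.52 ± 0.07). The cholesterol response was 1.30-fold in WT cells (log2 0.38 ± 0.07) and 0.991-fold in Trem2-/- cells (−0.01 ± 0.07), a difference of −0.39 ± 0.10. Without the third WT non-foamy library, the log2 fold change between genotypes in non-foamy cells was 0.96 for Msrb1 and 2.57 for Selenop.

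Gpx4, the peroxidase that reduces phospholipid hydroperoxides in membranes, was measured at 336, 344, 454 and 322 CPM in the WT libraries without cholesterol and at 299, 316, 381 and 374 CPM in those with it. The Trem2-/- libraries were at 302, 289 and 299 CPM without and 357, 332, 346 and 355 CPM with cholesterol. The Trem2-/- non-foamy libraries lay below all WT non-foamy and all Trem2-/- foamy libraries, and the foamy groups overlapped. Its log2 fold change between genotypes was −0.29 ± 0.10 in non-foamy cells, and −0.17 without the third WT non-foamy library, which alone was above 400 CPM. In foamy cells it was 0.02 ± 0.09. The value in Trem2-/- cells with cholesterol was 1.17 times that in media alone (log2 0.23 ± 0.10), against 0.941 times in WT cells (−0.09 ± 0.09). Of the 50-base stretches of Gpx4 transcripts, 34.7% also occur in the pseudogene Gpx4-ps2, which had group means of 34.7 to 41.4 CPM, so how reads were divided between the 2 genes is uncertain.

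Gpx1, the cytosolic peroxidase that reduces hydrogen peroxide, was measured at 217, 228, 301 and 218 CPM in the WT libraries without cholesterol and at 209, 218, 247 and 241 CPM in those with it. The Trem2-/- libraries were at 221, 206 and 220 CPM without and 260, 242, 264 and 228 CPM with cholesterol. The Trem2-/- foamy libraries were above the Trem2-/- non-foamy libraries, and every other pair of groups compared overlapped. The log2 fold change with cholesterol was 0.20 ± 0.09 in Trem2-/- cells and −0.07 ± 0.09 in WT cells, and the latter was 0.05 without the third WT non-foamy library. Between genotypes it was −0.16 ± 0.09 without and 0.12 ± 0.09 with cholesterol, and the first of these was −0.04 once the third WT non-foamy library was left out. The levels of both peroxidases in WT non-foamy cells therefore depend on 1 library.

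Txnrd2, the mitochondrial thioredoxin reductase, was the least abundant member per length. It was measured at 18.00 to 19.9 CPM without and 17.6 to 20.3 CPM with cholesterol in WT cells, and at 16.6 to 17.6 and 15.2 to 19.2 CPM in Trem2-/- cells. The non-foamy genotypes did not overlap, although the log2 difference was only −0.14 ± 0.09. Selenow, a small thioredoxin-fold protein, was measured at 14.7 to 21.0, 15.1 to 17.5, 15.4 to 20.1 and 16.6 to 20.2 CPM in the same order of groups, and all of its groups overlapped. Its log2 difference between genotypes was 0.04 in non-foamy cells, or 0.16 without the third WT non-foamy library, and 0.19 in foamy cells.

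Selenok, Selenos, Selenom and Selenof belong to the endoplasmic reticulum, where Selenok is a cofactor of the palmitoyl transferase Zdhhc6, Selenos joins the complex that extracts misfolded proteins with Vcp and the derlins, and Selenof binds the folding sensors Uggt1 and Uggt2. Selenok was measured at 127, 125, 151 and 122 CPM in the WT libraries without cholesterol and at 113, 125, 138 and 130 CPM in those with it. The Trem2-/- libraries were at 156, 153 and 144 CPM without and 150, 146, 151 and 161 CPM with cholesterol. With cholesterol its genotypes did not overlap (log2 0.26 ± 0.07), and without it the third WT non-foamy library reached into the Trem2-/- range (0.20 ± 0.08, or 0.28 without that library). Selenom, a thioredoxin-fold protein, was measured at 26.5, 29.9, 32.8 and 29.8 CPM in the WT libraries without cholesterol and at 27.2, 28.3, 28.3 and 29.8 CPM in those with it. The Trem2-/- libraries were at 33.9, 30.8 and 37.1 CPM without and 35.6, 35.6, 37.4 and 29.9 CPM with cholesterol. Its log2 difference between genotypes was 0.19 ± 0.09 (0.24 without the third WT non-foamy library and 0.12 without the third Trem2-/- one) without and 0.29 ± 0.08 with cholesterol, where the lowest Trem2-/- library was barely above the highest WT one. Selenos was measured at 33.6 to 43.3 CPM and Selenof at 295 to 431 CPM over the 15 libraries, with overlap in each of the 4 comparisons. Their genotype differences were −0.12 ± 0.08 and −0.13 ± 0.09 in non-foamy cells, and both were −0.06 without the third WT non-foamy library. In foamy cells they were −0.02 ± 0.07 and 0.13 ± 0.08. Stretches that Selenok shares with its pseudogenes were 8.01% of its 50-base stretches.

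**Figure D2:**
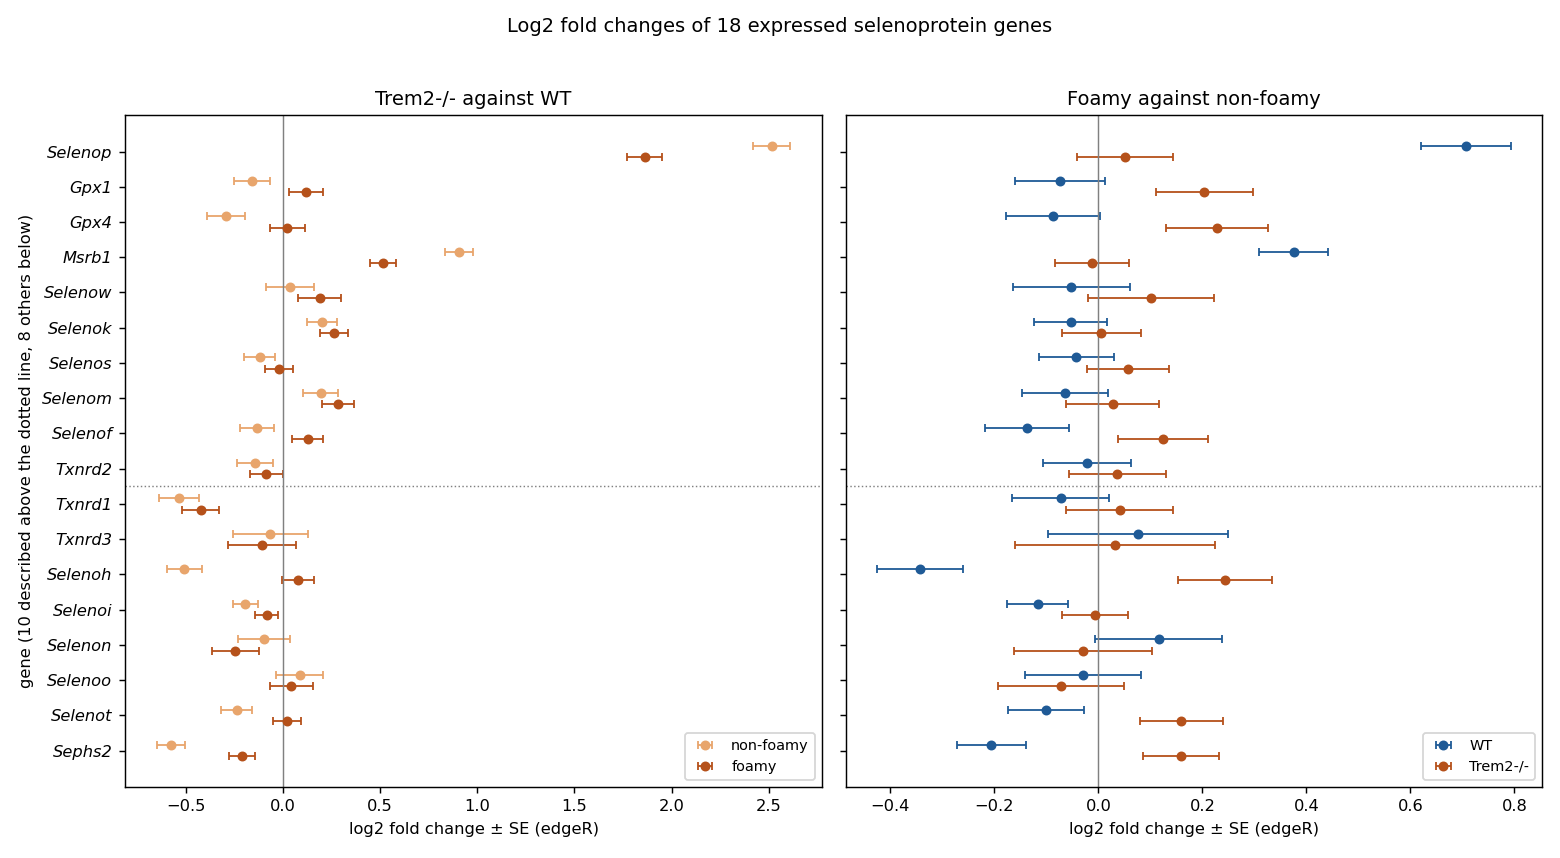
Log2 fold changes with their standard errors from the edgeR fit on all 15 libraries, for the 10 selenoproteins described (above the dotted line) and the 8 further tested ones (below it), Trem2-/- against WT on the left and foamy against non-foamy on the right. Selenop, at 2.52 and 1.86, and Msrb1, at 0.90 and 0.52, lie apart on the left, and on the right they are the members of WT cells well above 0, at 0.71 and 0.38.

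Counted over the 10 genes, and read as no more than a description because the list was chosen on these libraries, the genotype comparison in non-foamy cells had 3 members called higher (adjusted p under 0.05 in edgeR), Selenop, Msrb1 and Selenok, and 1 lower, Gpx4, where 21.0% of all tested genes were called higher and 22.6% lower. Groups did not overlap for 4 of the 10, against 46.1% of all tested genes. In foamy cells 4 members were called higher, Selenop, Msrb1, Selenok and Selenom, and none lower, beside 14.3% and 15.9% of all tested genes, and the genotypes did not overlap for 4 of 10, beside 28.8%. The median log2 fold change of the 10 was −0.04 in non-foamy and 0.16 in foamy cells, with all tested genes at 0.02 and 0.00. The median log2 difference of short genes (at most 2464 exonic bases) minus that of long ones (at least 6558) was 0.018 and 0.121. With cholesterol this quantity was −0.073 in WT and 0.048 in Trem2-/- cells. Most of the 10 members are short by this measure, and the part of the length trend in their values was not tested. Without the third WT non-foamy library, 4 members were called higher and none lower in non-foamy cells: Gpx4 was then not called and Selenom was. Over the 15 fits that each left out 1 library, Selenok dropped out in 5, Gpx4 in 2, and Selenop and Msrb1 in none. These fits share the libraries on which the list was chosen, so they lend the calls no support.

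For cholesterol in WT cells, 2 members, Selenop and Msrb1, were called higher and none lower, beside 1.66% and 1.14% of all tested genes, and the same 2 did not overlap, beside 9.71%. The remaining 8 members had fitted values under 0, between −0.14 and −0.02. Leaving out the third WT non-foamy library turned 5 of these 8 to values above 0, and the median of the 10 from −0.05 to 0.03. In Trem2-/- cells no member was called in either direction in edgeR or DESeq2. In this comparison edgeR called 0.105% of all tested genes higher and 0.0351% lower. There, 9 of the 10 fitted values were above 0, and the foamy and non-foamy libraries of Gpx1 and Gpx4 did not overlap, beside 9.26% of tested genes without overlap. The difference between the responses was called lower for 2 members, Selenop and Msrb1, and higher for none, beside 1.64% and 1.99% of tested genes. Msrb1 dropped out of that count in 7 of the 15 fits that each left out 1 library. The cholesterol comparisons and the genotype comparisons use the same 4 groups of libraries, so they are not independent of each other. Scaled to total counts alone, the median gene shifted by −0.125 and −0.129 in the genotype comparisons and members shifted with it: 4 rather than 5 of the 10 were then above 0 in non-foamy and 6 rather than 8 in foamy cells, with Gpx1 at 0.00 and Gpx4 at −0.10 in the latter, while Selenop stood at 2.38 and 1.73 and Msrb1 at 0.77 and 0.39. The split of members called in non-foamy cells went from 3 higher and 1 lower to 2 higher and 5 lower: Gpx1 (−0.29), Selenos (−0.26), Selenof (−0.27) and Txnrd2 (−0.29) joined Gpx4 (−0.43), and Selenok, at 0.07, was no longer called. In foamy cells it went from 4 to 3 higher, without Selenom (0.16).

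The order of the members per length of mRNA differed between genotypes. In WT non-foamy cells Gpx4 led at 211 CPM per kilobase of exon, followed by Gpx1 at 167, Selenok at 69.5, Selenof at 64.7, Selenop at 57.4 and Msrb1 at 54.1, and the ranges of Gpx4 and Gpx1, and of each pair of neighbours from Selenok to Msrb1, overlapped. In WT foamy cells Selenop was in the third place at 93.6 CPM per kilobase, with a range clear of its neighbours Gpx1 at 159 and Msrb1 at 70.1. In Trem2-/- cells Selenop was first, at 328 CPM per kilobase without and 340 with cholesterol, clear of Gpx4 at 172 and 202. Selenos, Selenow, Selenom and Txnrd2 closed the order in every group, with Txnrd2 at 3.87 to 4.28 CPM per kilobase and no overlap with the gene above it.

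Because Selenop carries 10 Sec codons, its level weighs more when mRNA is counted by Sec codons, that is, when the CPM per kilobase of each of the 24 selenoprotein genes is multiplied by its number of Sec codons and summed. This sum is a property of the mRNA pool and not of protein made. It was 1317, 1348, 1605 and 1320 in WT non-foamy libraries, 1475 to 1871 in WT foamy libraries, 4058, 4175 and 3932 in Trem2-/- non-foamy libraries and 3881 to 4713 in Trem2-/- foamy libraries. Selenop supplied 41.1% ± 0.966 (SD, n = 4) of it in WT cells without cholesterol and 54.3% ± 1.79 (n = 4) with it, and 80.9% ± 0.935 (n = 3) and 79.8% ± 1.66 (n = 4) in Trem2-/- cells. Without Selenop, the sum over the other 23 genes was 824 ± 95.6, 784 ± 59.4, 775 ± 17.6 and 853 ± 17.3 in these groups, with the WT groups spanning 710 to 967. Without Selenop the genotypes overlapped in this sum, and Selenop had been selected on measured values. In foamy cells the overlap was narrow, with the lowest Trem2-/- library at 834 and the highest WT one at 837. The Trem2-/- foamy libraries, at 834 to 876, lay above the Trem2-/- non-foamy ones, at 755 to 788.

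**Figure D3:**
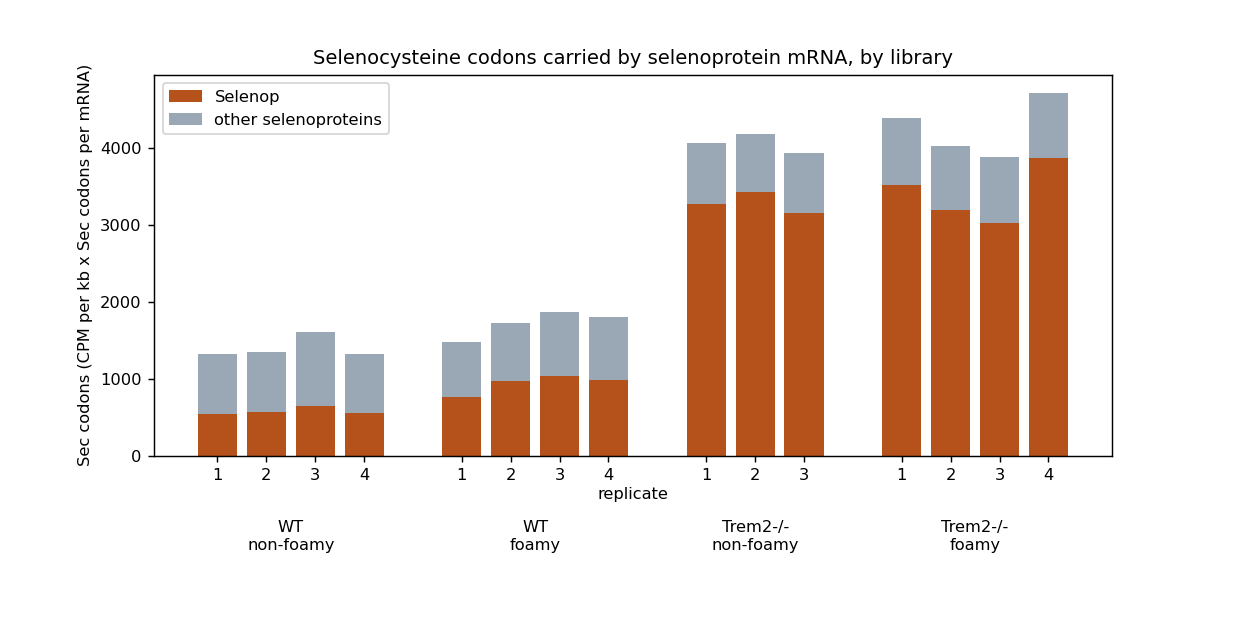
Selenocysteine codons in selenoprotein mRNA by library, as CPM per kilobase times the number of Sec codons of each of 24 genes, with the share of Selenop and that of the other 23 genes stacked from 0. Selenop makes up 39.8 to 41.9% of the bar in WT non-foamy libraries and 78.0 to 82.0% in Trem2-/- libraries. The upper part of the bars is 767 to 967 in WT non-foamy and 710 to 837 in WT foamy libraries. In Trem2-/- libraries it is 755 to 788 without and 834 to 876 with cholesterol.

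The 14 further selenoprotein genes are what remains of the family after the members were taken, and their list was written with earlier results known, so their directions are not independent of that choice. They were tested over all genes. Gpx2, Dio2, Dio3 and Selenov were at 0 in all 15 libraries, Dio1 at no more than 0.0317 CPM and Gpx3 at no more than 0.129 CPM, too few reads to be tested. Of the 8 tested, 5 fell and none rose in Trem2-/- non-foamy cells (median −0.22 on the log2 scale), where 22.6% of all tested genes fell and 21.0% rose. In Trem2-/- foamy cells 2 fell and none rose (median −0.10), beside 15.9% and 14.3% of all tested genes. Txnrd1, the cytosolic thioredoxin reductase, was measured at 67.8, 73.4, 53.4 and 77.4 CPM in WT non-foamy and at 48.6, 48.5 and 43.9 CPM in Trem2-/- non-foamy cells, and fell in both states, by 0.54 ± 0.10 (adjusted p = 0.000184) and by 0.42 ± 0.09 (adjusted p = 0.0015) on the log2 scale, without overlap of the genotypes. Sephs2, the selenophosphate synthetase that makes the selenium donor for Sec, fell by 0.58 ± 0.07 in non-foamy cells (adjusted p = 1.04e-06) and by 0.21 ± 0.07 in foamy cells (adjusted p = 0.0195). Its libraries were at 59.4 to 73.6 CPM in WT non-foamy and 46.1 to 47.2 CPM in Trem2-/- non-foamy cells. An overlapping gene on the other strand, Gm44729, covers 36.4% of the exonic bases of Sephs2.

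Selenoh, a nuclear thioredoxin-fold protein, was the further selenoprotein that moved with cholesterol in edgeR. It was measured at 77.4, 77.3, 102.4 and 81.8 CPM in WT non-foamy and 59.4, 65.2, 67.8 and 74.5 CPM in WT foamy cells, without overlap, and fell by 0.34 ± 0.08 on the log2 scale (adjusted p = 0.0244). In Trem2-/- cells it was measured at 60.8, 54.9 and 62.6 CPM without and 66.9, 71.7, 71.7 and 71.3 CPM with cholesterol (log2 0.24 ± 0.09, adjusted p = 0.66). The responses differed by 0.59 ± 0.12 (adjusted p = 0.00922), and between genotypes it fell by 0.51 ± 0.09 in non-foamy cells (adjusted p = 7.57e-05), with 0.08 ± 0.08 in foamy cells (adjusted p = 0.522). Without the third WT non-foamy library, the highest of its group, the WT cholesterol value was −0.24 with an adjusted p of 0.0523. Selenot and Selenoi, proteins of the endoplasmic reticulum of which the latter makes phosphatidylethanolamine, fell in Trem2-/- non-foamy cells by 0.24 ± 0.08 and 0.19 ± 0.06 (adjusted p = 0.0189 and 0.0165), and had 0.02 ± 0.07 and −0.08 ± 0.06 in foamy cells. Without the first Trem2-/- non-foamy library neither was called (adjusted p = 0.0519 and 0.083), nor was Selenot without the third of that group (0.0814) or Selenoi without the fourth WT non-foamy library (0.0588). Selenon, Selenoo and Txnrd3 passed no test, with genotype values between −0.24 and 0.09. The response difference of Sephs2, 0.37 ± 0.10, had an adjusted p of 0.0403. None of these 8 selenoproteins passed the test for cholesterol in Trem2-/- cells in edgeR or DESeq2. In this comparison edgeR called 0.105% of all tested genes higher and 0.0351% lower.

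**Figure D4:**
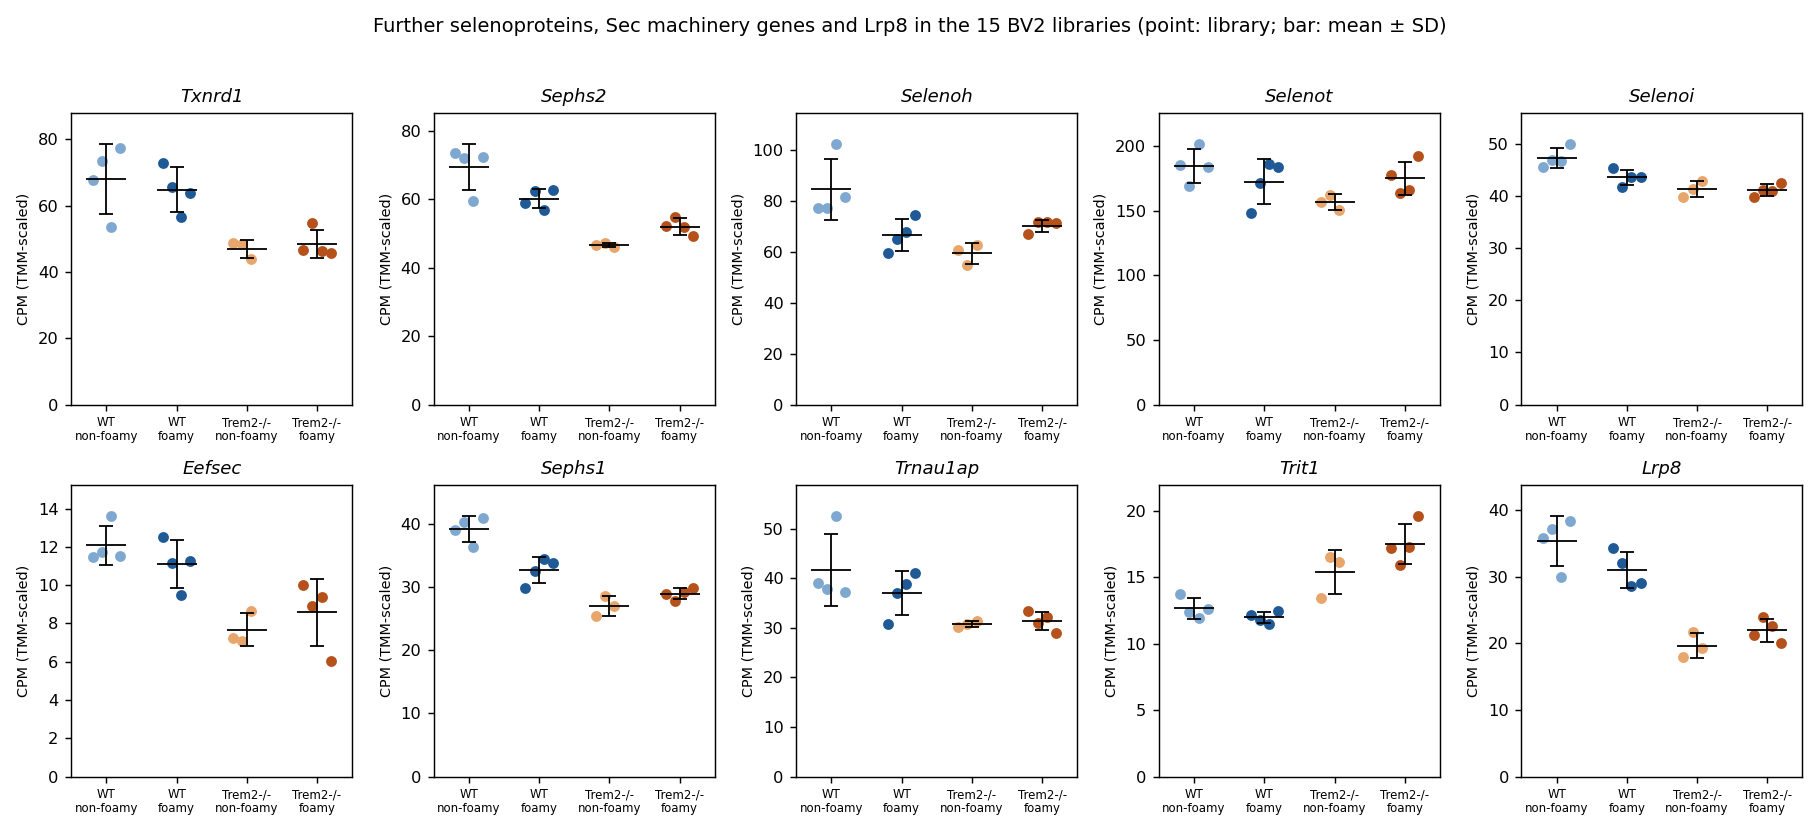
Levels of 5 further selenoproteins, 4 genes of Sec synthesis and insertion and the selenoprotein P receptor Lrp8 in the 15 libraries, in TMM-scaled CPM on linear axes from 0 (points are libraries, bars the mean ± SD). Txnrd1, Sephs2 and Lrp8 are lower in all Trem2-/- libraries of a state than in the WT libraries of that state, Trit1 is higher in the foamy ones, and Selenoh has its lowest mean, 59.4 CPM, in Trem2-/- non-foamy cells.

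Of the 9 genes that make and insert Sec, 1 rose and 3 fell in Trem2-/- non-foamy cells (median −0.19) and 1 rose and 2 fell in foamy cells (median −0.12). Of all tested genes, 21.0% rose and 22.6% fell in the first comparison and 14.3% and 15.9% in the second, so 4 and 3 of 9 are not far from the shares of all genes. Eefsec, the elongation factor of selenocysteine, was measured at 11.5 to 13.6 CPM in WT non-foamy and 7.11 to 8.67 CPM in Trem2-/- non-foamy cells, falling by 0.65 ± 0.14 (adjusted p = 0.000711), and by 0.37 ± 0.13 in foamy cells (adjusted p = 0.0339), where 1 Trem2-/- library at 6.01 CPM was the lowest and the value was −0.24 (adjusted p = 0.125) without it. Sephs1, a relative of Sephs2 that holds no Sec, fell by 0.54 ± 0.08 in non-foamy cells (adjusted p = 4.53e-06). It also fell with cholesterol in WT cells, by 0.26 ± 0.07 (adjusted p = 0.0403), and its responses differed by 0.37 ± 0.10 (adjusted p = 0.0483). Trnau1ap, which binds the Sec tRNA, fell by 0.43 ± 0.11 in non-foamy cells (adjusted p = 0.0025), and had −0.30 without the third WT non-foamy library. Trit1, which modifies that tRNA among others, rose by 0.28 ± 0.10 (adjusted p = 0.0265) and 0.54 ± 0.09 (adjusted p = 7.93e-05), the first with overlapping libraries and at 0.13 (adjusted p = 0.332) with total counts alone. Scly, which frees selenium from selenocysteine, fell by 0.24 ± 0.08 in foamy cells (adjusted p = 0.0356) and is named because it completes this small count. Secisbp2, Sepsecs, Pstk and Sars passed no test in these 2 comparisons.

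Lrp8, the receptor that takes up selenoprotein P in brain and testis, was measured at 35.8, 37.2, 30.0 and 38.4 CPM in the WT libraries without cholesterol and at 34.4, 32.1, 28.6 and 29.1 CPM in those with it. The Trem2-/- libraries were at 17.9, 21.7 and 19.4 CPM without and 21.2, 24.0, 22.7 and 20.1 CPM with cholesterol. It was lower in Trem2-/- cells without overlap, falling by 0.85 ± 0.10 (adjusted p = 4.03e-07) and 0.50 ± 0.09 (adjusted p = 0.000235), in the opposite direction to Selenop. Lrp2, the kidney receptor of the same family, was under 1 CPM in every library, so its fitted value of −1.05 ± 0.40 in foamy cells (adjusted p = 0.0484) rests on few reads.

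Of the 17 genes of the glutathione and thioredoxin systems that are no selenoproteins, 3 rose and 5 fell in non-foamy and 5 rose and 3 fell in foamy Trem2-/- cells. Beside the shares of all tested genes, 21.0% and 22.6% in non-foamy and 14.3% and 15.9% in foamy cells, 8 of 17 is close to the share of all genes in the former. Gclc, the first enzyme of glutathione synthesis, fell by 0.67 ± 0.09 and 0.57 ± 0.08 (adjusted p = 2.78e-06 and 1.89e-05). Gsr, which recycles the glutathione that Gpx1 and Gpx4 oxidise, fell by 0.69 ± 0.11 in non-foamy cells (adjusted p = 3.42e-05) and had −0.03 ± 0.10 in foamy cells. Txnip, an inhibitor of thioredoxin, rose by 0.69 ± 0.06 and 0.51 ± 0.06 (adjusted p = 6.54e-09 and 7.36e-07), and Prdx5, a peroxiredoxin, by 0.47 ± 0.08 and 0.63 ± 0.07 (adjusted p = 4.11e-05 and 9.41e-07). Of the exonic bases of these 2 genes, 19.4% and 19.1% overlap genes on the other strand. None of the 17 was called for cholesterol in edgeR in either genotype. DESeq2 called 1 of them in WT and none in Trem2-/- cells. Of all tested genes, edgeR called 1.66% higher and 1.14% lower in WT cells, and 0.105% and 0.0351% in Trem2-/- cells.

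Among the relatives that hold cysteine in place of Sec, 2 of 5 were tested. Msrb2, the mitochondrial counterpart of Msrb1, fell by 0.68 ± 0.20 and 0.91 ± 0.18 (adjusted p = 0.00669 and 0.000483), where Msrb1 had values above 0. It was measured at 6.83 to 7.61 CPM in WT non-foamy and at 3.08, 6.75 and 3.64 CPM in Trem2-/- non-foamy cells. Its non-foamy value was −0.46 (adjusted p = 0.072) without the first of these Trem2-/- libraries and −1.09 without the second. Msra, which repairs the other stereoisomer of oxidised methionine, rose by 0.31 ± 0.11 in non-foamy cells (adjusted p = 0.0232), with overlap. With total counts alone Msra was at 0.17 (adjusted p = 0.213), and its call was also lost without the first or the third Trem2-/- or the fourth WT non-foamy library (adjusted p up to 0.153). Of the 8 tested partners of the endoplasmic reticulum members, 1 rose and 2 fell in non-foamy and 2 fell in foamy Trem2-/- cells. Of all tested genes, 21.0% rose and 22.6% fell in non-foamy and 14.3% rose and 15.9% fell in foamy cells. Vcp, the segregase that Selenos binds, fell by 0.37 ± 0.08 and 0.29 ± 0.08 (adjusted p = 0.00089 and 0.00557), and Uggt1 by 0.32 ± 0.10 in foamy cells (adjusted p = 0.0162). Sel1l rose by 0.28 ± 0.09 (adjusted p = 0.0117) and Zdhhc6, the partner of Selenok, fell by 0.25 ± 0.08 (adjusted p = 0.0128), both in non-foamy cells. With total counts alone Sel1l was at 0.14 (adjusted p = 0.366). Without the first Trem2-/- non-foamy library neither was called (adjusted p = 0.0573 and 0.0599).

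The genes whose levels followed Selenop most closely over the 15 libraries, by the root mean square difference of log2 CPM profiles each centred on its own mean, were Gadd45a (0.206), Selenbp2 (0.217) and Apoc4 (0.217), out of 11708 genes, where Selenop itself spanned 2.83 log2 units. For Msrb1 they were Atf3 (0.071), Tmod1 (0.083) and Rell1 (0.086), with a span of 1.15. The nearest genes for Selenop were scarcer than it. Group means were 0.680 to 4.67 CPM for Gadd45a, 4.98 to 27.7 CPM for Selenbp2 and 0.462 to 2.91 CPM for Apoc4. Before taking logs 0.1 CPM was added to every level, which narrows the profiles of genes as scarce as Gadd45a and Apoc4. For the other 8 members, which varied little, the nearest profiles differed by 0.037 to 0.094.

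Promoter letters were read because the same groups separated for Selenop and Msrb1. The windows were the 250 bases before each RefSeq gene start (GRCm38.p6), and all 10 members had one, 15 windows in all. In these, 5 motifs were searched on both strands, and each is given with the share of all 32851 promoter windows that hold it. They were TGTTTAC for FOXO (3.17%), TGANTCA for AP-1 (6.75%) and TGACNNNGC for the antioxidant response element (10.2%). The others were CACGTG for the E-box (6.02%) and TGCNCNC, a loose form of the metal response element core (44.4%). The core itself has A or G in place of the first N, so hits of the loose form need not hold it. The FOXO letters occurred in 1 member window, that of Selenop, 24 bases before a gene start and on the reverse strand, shown here in capitals at chr15:3270942-3270970.
Selenop site: cagagggcgagGTAAACAacagggctata
Among the members, the AP-1 and antioxidant response letters occurred in Selenok alone and the E-box in Selenos alone. The loose metal response letters occurred in 7 windows of 5 members, where overlapping windows of Gpx4 counted the same site again. The hit of Selenom and the forward-strand hit of Txnrd2 have A or G at the first N. Those of Selenop, Selenow and Gpx4 do not. No window of Msrb1 held any of the motifs, so these letters were not shared by Selenop and Msrb1 in this window.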

How the data were processed

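BV2 RNA-seq libraries of 4 groups (15 libraries) were compared. The deposited values are raw counts per gene, 1 table a library, made by the authors with the CHURP pipeline (Trimmomatic, HISAT2, SAMtools, featureCounts) on GRCm38 with Ensembl release 102 (mm10 in the submitters' processing notes). Strand setting and the treatment of reads with several matches are not given in the sources used here, so reads of overlapping genes and pseudogenes may be shared.

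Counts were scaled by TMM (factors 0.918 to 1.11), filtered with filterByExpr (minimum count 10) and fitted with edgeR 4.0.16 (quasi-likelihood F-test, R 4.3.3) on all 15 libraries with 1 mean per group. P-values were adjusted by Benjamini-Hochberg over 14237 genes, and adjusted p under 0.05 was called. The biological coefficient of variation was 10.2%. The fit was also run on simulated counts with genotype effects alone. These held no cholesterol effect, response difference or length trend, so that run cannot speak to results that depend on them. Standard errors were taken from the F statistic, as the absolute log2 fold change divided by the square root of F. The spread behind them was estimated over all 15 libraries and moderated across genes. It is not that of the compared groups alone. No 2 libraries of a group agreed within sampling noise (chi-square per gene 5.75 to 43.3 over 21 pairs).

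Members and lists were chosen with earlier results of these data known. All members and further selenoproteins are named, and of each further list up to 4 called genes of at least 1 CPM with the largest genotype fold change. The 3 nearest profiles are given for the member with the widest range of group means and for Msrb1. Lengths and Sec codons came from GENCODE M21 (GRCm38), promoters from RefSeq. Alternatives were DESeq2 1.42.0, RLE or no scaling factors, other filters, fits of the compared groups alone, a replicate block and each library left out.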

Additional observations from a re-analysis of the deposited data

Results flagged for a closer look

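In a group of 4 libraries, a library was picked out where its gap to the nearest other, as a share of the group's range, exceeded Dixon's critical value at the 95% level. Chance picks about 1 in 20 groups, and 8 of the 99 groups examined were picked. Of these 8, 5 were the third WT non-foamy library: Gpx1 at 300.6 CPM with the others at 217 to 228, Gpx4 at 454 CPM with the others at 322 to 344, Trnau1ap at 52.5 CPM and Eefsec at 13.6 CPM as high values, and Sephs2 at 59.4 CPM as a low value. The remaining 3 were Trem2-/- foamy libraries, with Msrb1 at 138 CPM against 121 to 123 in the others, Txnrd1 at 54.6 CPM against 45.8 to 46.7, and Selenoh at 66.9 CPM below the others.

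The response to cholesterol differed between genotypes, by the interaction term in edgeR, for Selenoh (0.59 on the log2 scale, adjusted p = 0.00922), Gsr (0.65, adjusted p = 0.0203), Sephs2 (0.37, adjusted p = 0.0403) and Sephs1 (0.37, adjusted p = 0.0483). In each of the 4, the fitted value was below 0 in WT cells and above 0 in Trem2-/- cells, where none of them was called on its own.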

How the results depend on the processing

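Of the fold changes of named genes outside the list of members, 81 values under an alternative lost their call and none turned its direction. The calls most easily lost were the response differences of Sephs2 (lost in 14 of 21 alternatives, adjusted p 0.00325 to 0.11) and Sephs1 (15 of 21, 0.00909 to 0.156), and the fall of Sephs1 with cholesterol in WT cells (13 of 22, 0.00434 to 0.134). Trit1 in non-foamy cells lost its call in 7 of 22 (adjusted p 0.00902 to 0.332), Eefsec in foamy cells in 5 of 22 (0.0118 to 0.125), and Selenoh with cholesterol in WT cells in 4 of 22 (0.000551 to 0.108). Among the members, the values that changed sign under an alternative lay between −0.09 (Gpx4, cholesterol in WT cells) and 0.12 (Gpx1, genotype in foamy cells). The response difference of Gsr lost its call in 4 of 21 (0.00191 to 0.061). The remaining losses were in 1 to 4 of 22 alternatives each. Causes were not tested. The selenoproteins at or near 0 had too few counts to be tested.

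Genes called for cholesterol numbered 399 in WT and 20 in Trem2-/- cells, and 881 and 56 by DESeq2, 607 and 61 with no filter on low counts, and 144 in WT cells when only the compared groups were fitted. The response difference had 518 calls, and 985 by DESeq2. With total counts alone the share of calls that were higher went from 48.1% to 29.4% and from 47.4% to 23.3% in the genotype comparisons, from 59.4% to 41.8% for cholesterol in WT cells (48.2% by DESeq2), and from 54.8% to 70.3% for the response difference.

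Over the lists, total counts alone gave 7 members (2 higher and 5 lower in place of 3 and 1), 13 glutathione and thioredoxin genes and 1 cysteine relative called in non-foamy genotypes in place of 4, 8 and 2, 5 machinery genes in foamy genotypes in place of 3, and for the response difference 1 further selenoprotein, 0 machinery genes and 3 glutathione and thioredoxin genes in place of 2, 1 and 1, the last also 3 by DESeq2. For cholesterol in WT cells, 2 further selenoproteins were called by DESeq2 and 0 in the compared groups alone in place of 1. The 1 machinery gene called for cholesterol became 0 with total counts, with no filter and in the compared groups alone, and the 1 for the response difference 0 with no filter. Of the glutathione and thioredoxin genes, 1 was called for WT cholesterol by DESeq2 and with no filter in place of 0. Of the 2 receptors called in foamy cells, 1 remained called with no filter, with at least 10 counts in every library and in the compared groups alone.

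Leaving out 1 library at a time gave 146 to 540 calls for cholesterol in WT cells (lowest without the second WT foamy library), 10 to 27 in Trem2-/- cells and 201 to 661 for the response difference (the lowest of both without the first Trem2-/- non-foamy library). Members called for the response difference were 1 to 2. Further selenoproteins called were 0 to 1 for WT cholesterol, 3 to 5 and 1 to 3 for genotype in non-foamy and foamy cells, and 1 to 2 for the response difference. Machinery genes were 0 to 1 for WT cholesterol, 1 to 4 for foamy genotypes and 0 to 1 for the response difference. Receptors were 1 to 2 in foamy cells, glutathione and thioredoxin genes 0 to 1 for WT cholesterol and 0 to 1 for the response difference, cysteine relatives 0 to 2 in non-foamy cells, and endoplasmic reticulum partners 1 to 4 and 1 to 3 in non-foamy and foamy genotypes.

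Replicate numbers did not pair the libraries: over 21 pairs of the same number the correlation of deviations was −0.105 to 0.143, with 1 above 0.1. With the replicate number as a block, calls for the response difference were 294 in place of 518, with 1 member, 1 further selenoprotein and 0 machinery genes called, WT cholesterol had 0 machinery genes called, and 1 receptor was called in foamy cells. The other counts moved by less than 1.5 times.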
